A study of Mus musculus with 8 samples.

Results

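The 10 genes described here cover the breakdown of heme to bilirubin in macrophages and the steps next to it. They are *Hmox1* and *Hmox2*, *Blvra* and *Blvrb*, *Slc48a1*, *Flvcr1*, *Fech*, *Abcc1*, and the regulators *Bach1* and *Spic*. They were chosen by symbol for their known role, and the table held a row for all 10 of the 10, among 53819 gene rows. RNA was sequenced from bone marrow-derived macrophages (BMDM) of 4 female Balb/cJ mice aged 8 weeks, with cells of each mouse cultured separately. BMDM were grown for 5 days with 25 ng/mL of the growth factor M-CSF, and cultures of each mouse then received 2.5 µM bilirubin or DMSO vehicle for 48 h. This gave 8 poly(A)-selected libraries, 4 per treatment, and the labels name no genetic change in any culture. The 4 vehicle libraries held from 37747315 to 47071714 counts and the 4 bilirubin libraries from 34142781 to 41054034. The comparison asked how the macrophages' own heme-degrading genes stood after exposure to the end product of that pathway.

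Heme oxygenase opens the heme ring and releases iron, carbon monoxide and biliverdin, and biliverdin reductase then turns biliverdin into bilirubin. HO-1, from *Hmox1*, is the inducible heme oxygenase, and HO-2, from *Hmox2*, is the constitutive enzyme. Macrophages that clear aged red cells run this pathway at a high rate. In them the repressor BACH1 sits on *Hmox1* and *Spic* until heme binds it and leads to its degradation, and the activator NRF2 occupies the same kind of site as a heterodimer with a small MAF protein.

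The letters GCTGAGTCA, a core shared by NRF2 and BACH1 sites, were searched on both strands in the 12000 bases before the start of the most abundant transcript of each tested gene, since members of this pathway are known targets of both factors. The window was set wide because distal enhancers of *Hmox1* are known. The place of *Hmox1* among all genes was thus in part set by this choice and is given as a description only. *Hmox1* held 4 copies, *Abcc1* held 2, *Flvcr1* held 1, and the other 7 members held 0. Of 13613 tested genes with a window, 17.4% held at least 1 copy, 1.87% at least 2 and 0.184% at least 3, and *Hmox1* was among 7 genes with 4, the highest number in any gene. In *Hmox1*, 3 of the copies lay within 86 bases, at chr8:75810567-75810652 on the plus strand of GRCm39, and the nearest copy lay at chr8:75816368-75816396, 3863 bases before the start. The copies of *Abcc1*, on the plus strand of chromosome 16, began 10476 and 8643 bases before its start, at chr16:14168825-14168853 and chr16:14170658-14170686. The copy of *Flvcr1*, on the minus strand of chromosome 1, began 5003 bases before its start, at chr1:190763395-190763423. All these positions are those of the printed stretches, with the flanking bases in lower case included, while distances run to the first base of a copy. The sequences are shown 5′ to 3′ on the strand of the gene to set the only members with a copy side by side, with the copies in capitals and the nearer *Abcc1* copy in its reverse complement.
Hmox1 distal cluster: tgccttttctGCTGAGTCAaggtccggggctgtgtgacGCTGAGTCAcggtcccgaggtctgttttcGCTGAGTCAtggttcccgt
Hmox1 nearest copy: gacagattttGCTGAGTCAccctctgttc
Abcc1 farther copy: aactggaattGCTGAGTCAtttcctcatt
Abcc1 nearer copy: tgtatagtcaTGACTCAGCaataaatggt
Flvcr1 copy: ttaactgcctGCTGAGTCAtctctctgac
The looser form TGACNNNGC, which also matches every copy of the first motif, was found in the 1000 bases before the start in 3 of 10 members (*Blvra*, *Blvrb* and *Flvcr1*) and 29.8% of tested genes. GAGGAAGT, a core read by PU.1 and its relatives such as SPI-C, was found there in 0 of 10 members and 6.77% of tested genes. Binding to these letters was not measured in these cultures.

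The libraries read as macrophages. All 8 macrophage markers were present, led by *Lyz2*, and their summed level was between 24210 and 24511 CPM (counts scaled to a common library size, here by TMM) in vehicle and between 28574 and 30555 in bilirubin cultures. Of these markers *Lyz2*, *Adgre1* and *Itgam* rose. The summed level of 11 listed erythroid markers was at most 0.305 CPM. Among neutrophil markers 5 of 12 were tested and *S100a8* rose from 11.5 ± 1.15 to 24.4 ± 5.55 CPM (SD, n = 4; log2 fold change 1.07 ± 0.09 SE, edgeR adjusted p = 0.000334). DESeq2 found 2 of them higher and 0 lower. *Retnlg* was at 0, and the highest count in any library was 3 for *Ly6g* and *Camp* and 7 for *Elane*. It was 18 for *Mpo*, 20 for *S100a9*, 27 for *Cxcr2*, 28 for *Ngp*, 30 for *Ltf* and 183 for *Cebpe*. Mean CPM was lower with bilirubin for *Elane* and *Cxcr2* and higher for the rest but *Retnlg*. The summed neutrophil level, which was mostly *Mmp8*, was between 144 and 171 CPM in vehicle and between 177 and 203 CPM in bilirubin cultures. Summed levels in vehicle and bilirubin cultures were between 2.45 and 3.03 and between 1.05 and 2.19 CPM for B cell markers, of which 2 were tested and *Ighm* fell, a call that was lost without mouse 2, 3 or 4 (edgeR adjusted p = 0.0114 with all mice and up to 0.0865 without mouse 3). They were between 0.736 and 1.25 and between 0.723 and 1.5 CPM for T and NK cells, between 0.118 and 0.318 and between 0.345 and 0.946 CPM for dendritic cells, at most 0.168 and 0.124 CPM for mast cells and basophils, and between 2.9 and 8.71 and between 2.71 and 8.53 CPM for stroma. Of the last 4 lists, 2 T and NK cell genes and 4 stroma genes were tested by edgeR, and 0 passed, with 0 and 1 at an unadjusted p under 0.05 and 0 by DESeq2 and limma-voom. The part of these levels in the results was not tested, and in bulk RNA fewer cells of a type and less RNA per cell cannot be told apart.

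Levels per transcript length, in TPM (counts divided by transcript length and scaled to a common total), set the order of the 10 genes. In vehicle cultures *Hmox1* stood far above the rest at 2431 ± 313 TPM (SD, n = 4) and ranked 42 among all genes by mean TPM. *Slc48a1*, the transporter HRG1 that moves heme out of the phagolysosome, came next at 477 ± 32.2 TPM. *Blvrb* was at 306 ± 12.7, *Blvra* at 199 ± 14.2 and *Hmox2* at 148 ± 8.26 TPM. *Abcc1* was at 75.2 ± 3.75, *Fech* at 64.1 ± 1.44, *Flvcr1* at 37.2 ± 2.35 and *Bach1* at 30.2 ± 0.792 TPM. *Spic* was the lowest at 1.49 ± 0.171 TPM and ranked 11441. The ranges of neighbours in this order did not overlap in vehicle cultures, and in bilirubin cultures the order was the same, with an overlap between *Flvcr1* and *Bach1* alone. The most abundant gene of the pathway was also the most variable member. The coefficient of variation of *Hmox1*, taken in CPM rather than TPM, was 13.4% over the 4 vehicle and 39.8% over the 4 bilirubin cultures. For the other 9 genes it was 2.81% (*Bach1*) to 12.8% (*Spic*) and 3.3% (*Hmox2*) to 16.8% (*Spic*).

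**Figure D1:**
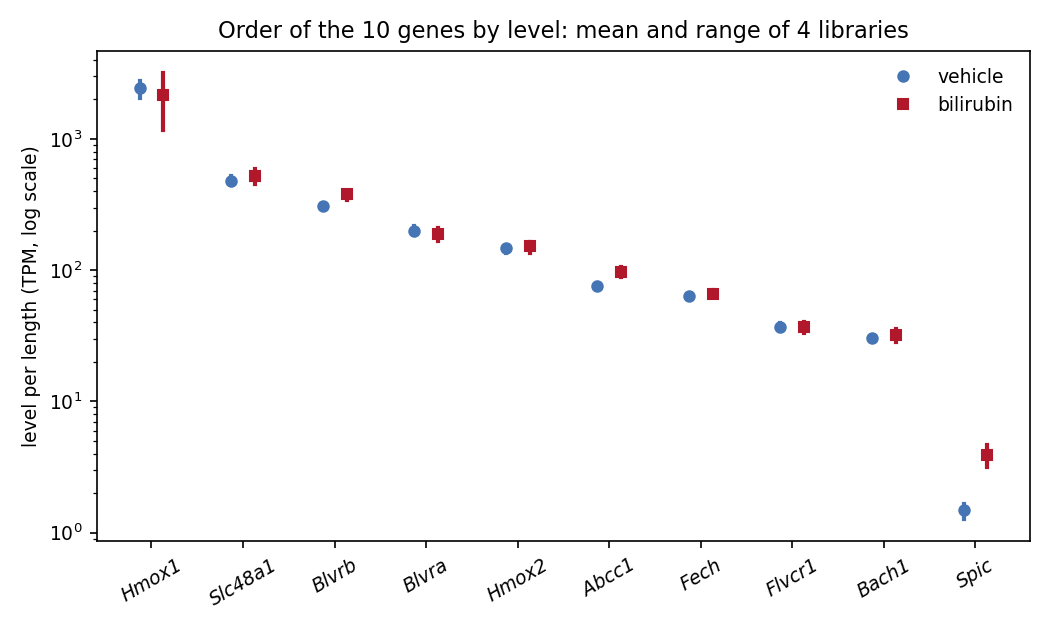
Level per transcript length (TPM, log axis) of the 10 genes in vehicle (circles) and bilirubin (squares) cultures, with the mean of 4 libraries as a symbol and their range as a bar. *Hmox1* lies above all other members in both treatments, with a range from 1164 to 3182 TPM in bilirubin cultures, and *Spic* lies below all others.

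With bilirubin, *Blvrb*, *Spic* and *Abcc1* rose and *Hmox1* did not pass the threshold. The test was edgeR's quasi-likelihood F test, fitted on treatment and mouse so that cultures of an animal were set against each other, with p-values adjusted over 13722 tested genes by the Benjamini-Hochberg method and a threshold of 0.05. All 10 members had enough counts to be tested. Of them 3 were higher and 0 lower, where 4.49% of all tested genes were higher, 3.04% lower and 7.53% past the threshold in either direction. At an unadjusted p under 0.05, 5 of the 10 passed, the other 2 being *Hmox2* and *Bach1*, all 5 of them higher, where 20.8% of all tested genes passed in either direction. DESeq2 and limma-voom also found 0 members lower, while the fit without a filter on low counts found 1, *Hmox1*. The CPM of 3 of the 10 did not overlap between treatments, against 10.6% of all tested genes. The median log2 fold change of the members was 0.11 and that of all tested genes -0.0018.

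**Figure D2:**
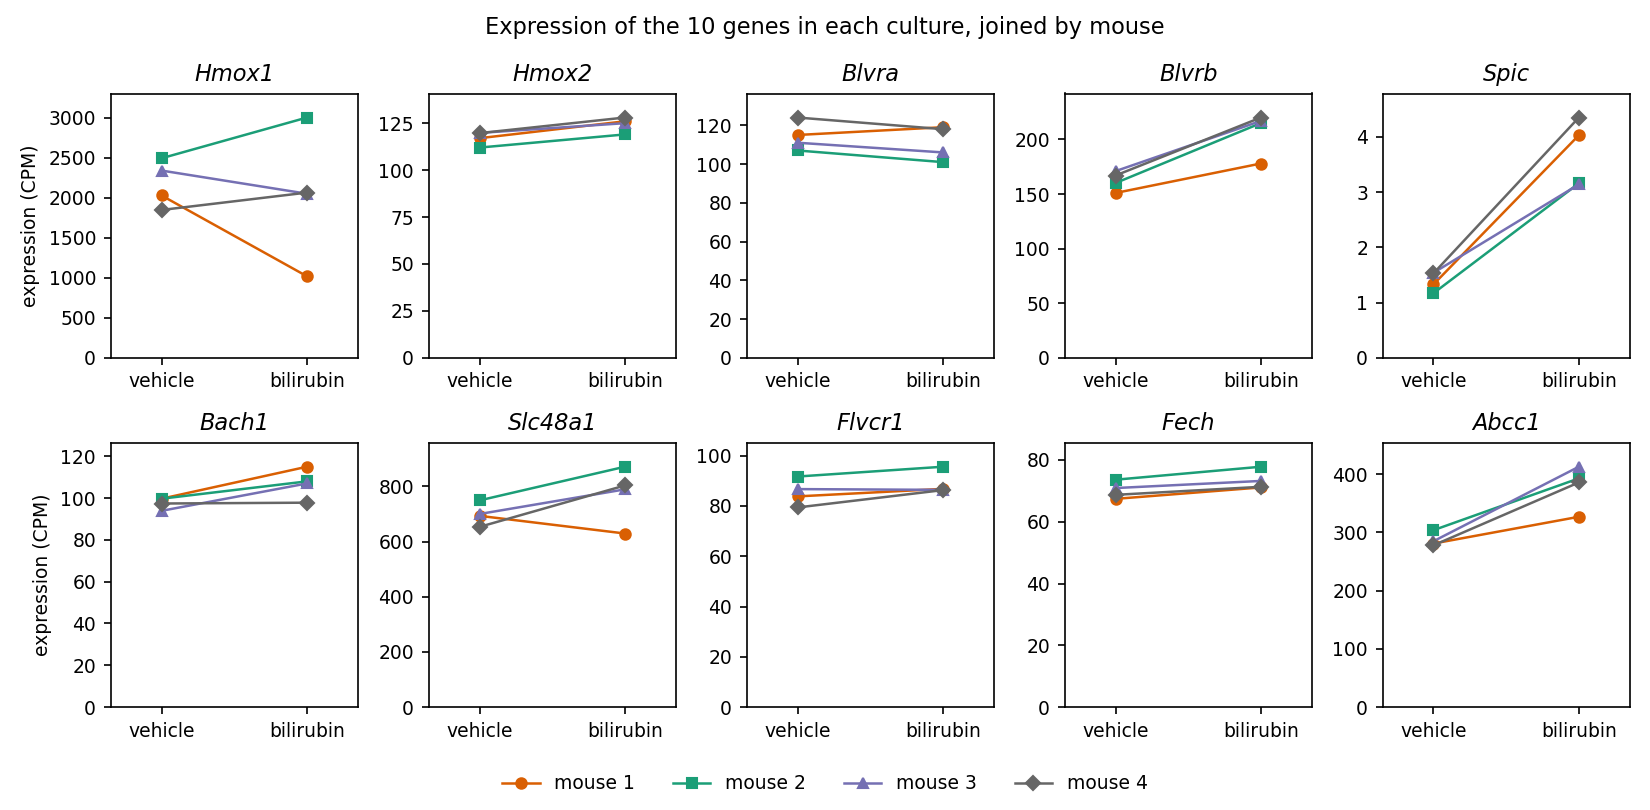
Expression in CPM of each of the 10 genes in the vehicle and bilirubin culture of mouse 1 to mouse 4, with lines joining cultures of the same mouse and each axis starting at 0. The bilirubin points of *Blvrb*, *Spic* and *Abcc1* all lie above the vehicle points, and *Hmox1* fell in mouse 1 from 2029 to 1020 CPM.

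*Blvrb* encodes biliverdin reductase B, which reduces flavins and, in the fetus, the beta isomer of biliverdin. It lies at chr7:27147275-27165569. In mice 1 to 4 it was at 151, 160, 171 and 167 CPM in vehicle and at 178, 215, 217 and 220 CPM in bilirubin cultures. Each mouse had the higher level with bilirubin, and the smallest rise was that of mouse 1. The log2 fold change was 0.35 ± 0.04 SE, a 27.7% rise (edgeR adjusted p = 0.00122). *Blvra*, at chr2:126912556-126939017, encodes biliverdin reductase A, the enzyme for the alpha isomer that heme oxygenase makes in adult cells. It was at 115, 107, 111 and 124 CPM in vehicle and at 119, 101, 106 and 118 CPM in bilirubin cultures. The groups overlapped, and the log2 fold change was -0.04 with a 95% confidence interval from -0.13 to 0.04 (edgeR adjusted p = 0.575). The TPM ratio of *Blvrb* to *Blvra* within a library was 1.44, 1.62, 1.66 and 1.43 in vehicle and 1.63, 2.37, 2.14 and 2.03 in bilirubin cultures. It was higher with bilirubin in 4 of 4 mice, by 0.40 ± 0.16 on the log2 scale (SD, n = 4), with a two-sided exact permutation p = 0.125, which is the smallest that 4 pairs can give.

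*Spic*, at chr10:88510629-88520960 on the minus strand, encodes the Ets factor SPI-C that heme induces and that red pulp macrophages of the spleen need. It was at 1.33, 1.17, 1.54 and 1.53 CPM in vehicle and at 4.03, 3.16, 3.14 and 4.35 CPM in bilirubin cultures. All 4 bilirubin cultures lay above all 4 vehicle cultures. The log2 fold change was 1.39 ± 0.17 SE, or 2.63-fold (95% confidence interval 1.01 to 1.78 on the log2 scale, edgeR adjusted p = 0.00191). These levels rest on between 44 and 175 counts per library, and *Spic* stayed the least abundant member with bilirubin at 3.90 ± 0.786 TPM (SD, n = 4).

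*Abcc1*, at chr16:14179311-14293601, encodes the efflux pump MRP1, which carries glutathione and organic anions and can carry unconjugated bilirubin. In mice 1 to 4 it was at 281, 304, 285 and 278 CPM in vehicle and at 327, 393, 413 and 386 CPM in bilirubin cultures. The groups did not overlap, and mouse 1 had the lowest bilirubin value. The log2 fold change was 0.40 ± 0.05 SE, a 31.9% rise (edgeR adjusted p = 0.00249). This gene, which held 2 of the motif copies shown above, overlaps the gene *Gm23116* on the same strand by its whole span, introns included. Whether the 2 genes share reads there was not tested. *Blvrb*, *Spic* and *Abcc1* passed the threshold in all 12 alternative settings tried, each mouse left out in turn included, with log2 fold changes of 0.33 to 0.39, 1.32 to 1.52 and 0.35 to 0.46.

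*Hmox1* lies at chr8:75820241-75827217. In mice 1 to 4 it was at 2029, 2494, 2340 and 1848 CPM in vehicle and at 1020, 3003, 2051 and 2065 CPM in bilirubin cultures. The culture of mouse 1 held the lowest level of all 8 libraries and that of mouse 2 the highest, so the groups overlapped and 2 mice were higher and 2 lower with bilirubin. The differences within mice 1 to 4 were -0.99, 0.27, -0.19 and 0.16 in log2 CPM. The log2 fold change was -0.18 ± 0.18 SE, with a 95% confidence interval from -0.59 to 0.22 (edgeR adjusted p = 0.634). Without mouse 1 it was 0.08, with an interval from -0.07 to 0.23 (edgeR adjusted p = 0.542), while the fit without a filter on low counts put it past the threshold with all 4 mice, at -0.19 (edgeR adjusted p = 0.0467). That was 1 of 12 alternatives and the only call among them, and its SE was 0.0621 where the main fit gave 0.176. The share of 73 genes of like level whose difference lay below that of *Hmox1* was 1.37%, 89.0%, 13.7% and 78.1% for mice 1 to 4.

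*Hmox2*, at chr16:4544216-4589816, was at 117, 112, 120 and 120 CPM in vehicle and at 126, 119, 125 and 128 CPM in bilirubin cultures. All 4 mice had the higher level with bilirubin, the ranges overlapped by the level of mouse 2, and the log2 fold change of 0.09 (95% confidence interval 0.01 to 0.16) did not pass after adjustment (edgeR adjusted p = 0.170). It overlaps *Gm15859* on its strand. Whether the counting used strand is not given in the sources used here, and *Hmox2*, *Slc48a1* and *Blvra* also overlap *Cdip1*, *Hdac7* and *Gm75586* on the other strand. The TPM ratio of *Hmox1* to *Hmox2* was 15.3, 20.4, 17.2 and 13.3 in vehicle and 7.10, 23.5, 14.4 and 13.8 in bilirubin cultures. It was 16.6 ± 3.0 and 14.7 ± 6.71 (SD, n = 4), a mean difference of -0.28 ± 0.59 on the log2 scale (two-sided exact permutation p = 0.625), and mouse 1 alone moved by -1.11.

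*Slc48a1*, at chr15:97676401-97690573, was at 693, 749, 700 and 653 CPM in vehicle and at 629, 871, 789 and 803 CPM in bilirubin cultures. It was higher with bilirubin in mice 2, 3 and 4 and lower in mouse 1, and the groups overlapped. With all mice the log2 fold change was 0.14 (95% confidence interval -0.01 to 0.29, edgeR adjusted p = 0.286). Without mouse 1 it was 0.23 ± 0.03 SE (edgeR adjusted p = 0.000902).

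The repressor *Bach1*, at chr16:87495782-87530234, was at 99.7, 99.7, 93.9 and 97.4 CPM in vehicle and at 115, 108, 107 and 97.8 CPM in bilirubin cultures. Its log2 fold change of 0.13 (95% confidence interval 0.03 to 0.23) did not pass after adjustment (edgeR adjusted p = 0.121), and the culture of mouse 4 lay within the vehicle range. *Flvcr1*, at chr1:190733367-190758440 on the minus strand, encodes an exporter of heme that also carries choline. It was between 79.4 and 91.7 CPM in vehicle and between 86.3 and 95.6 CPM in bilirubin cultures, with a log2 fold change of 0.06 (95% confidence interval -0.03 to 0.14, edgeR adjusted p = 0.445), and it overlaps *Gm8407* on its strand. *Fech*, at chr18:64585985-64623322 on the minus strand, encodes ferrochelatase, which puts iron into the finished heme ring. It was between 67.4 and 73.6 CPM in vehicle and between 71.1 and 77.8 CPM in bilirubin cultures, with a log2 fold change of 0.06 (95% confidence interval -0.01 to 0.14, edgeR adjusted p = 0.349).

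**Figure D3:**
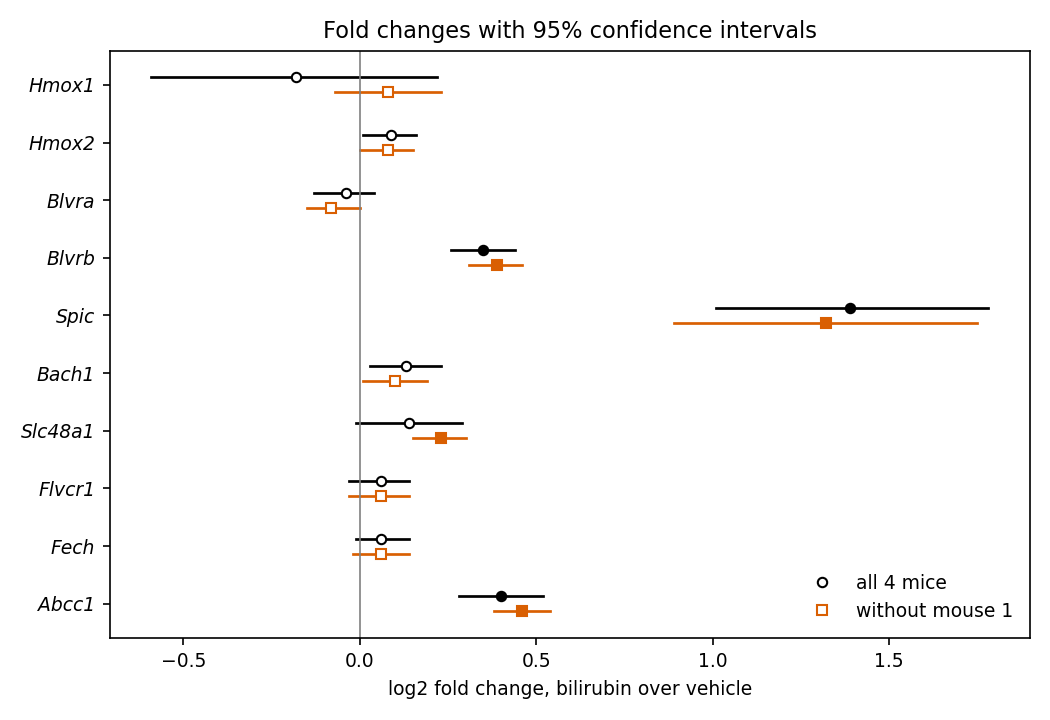
Log2 fold change of bilirubin over vehicle for the 10 genes, with 95% confidence intervals as bars, with all 4 mice (black circles) and without mouse 1 (orange squares), filled where the adjusted p was under 0.05. *Blvrb*, *Spic* and *Abcc1* are filled in both fits, *Slc48a1* is filled without mouse 1, and the interval of *Hmox1* runs from -0.59 to 0.22 with all mice and from -0.07 to 0.23 without mouse 1.

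The bilirubin culture of mouse 1 differed from the other 3 across the targets of NRF2 and BACH1, a list of 24 genes that holds 5 of the members. With all mice 10 of the 24 were higher and 0 lower, against 4.49% and 3.04% of all tested genes, and their median log2 fold change was 0.16. By edgeR 0 of them were lower at an unadjusted p under 0.05 too, and DESeq2 and limma-voom found 9 and 10 higher and 0 lower. The number of the 24 that were lower with bilirubin was 14, 0, 2 and 0 in mice 1 to 4, and the median differences were -0.07, 0.27, 0.23 and 0.27. Of all tested genes 49.9%, 49.7%, 50.3% and 49.6% were lower in mice 1 to 4. The library of this culture was also the shallowest of the 8. *Hmox1* had the largest fall in mouse 1 of the 24 genes, followed by *Gclc* and *Me1*, which were singled out after their values were seen. Without mouse 1, 19 of the 24 were higher and 0 lower, and without mice 2, 3 or 4 in turn 6, 4 and 6 were higher and 0 lower, so the count depends on every mouse. The calls over all genes moved too. Without mouse 1, 1026 of 13758 tested genes were higher and 884 lower. Without mice 2, 3 and 4 in turn, 419 of 13846, 265 of 13727 and 302 of 13721 were higher, and 215, 112 and 139 lower. *Gsr*, *Taldo1*, *Srxn1* and *Slc7a11* lost the call without mouse 2, 3 or 4 (edgeR adjusted p up to 0.197, 0.254, 0.222 and 0.120), and *G6pdx* and *Prdx1* lost it without mouse 3 (0.0557 and 0.0599).

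**Figure D4:**
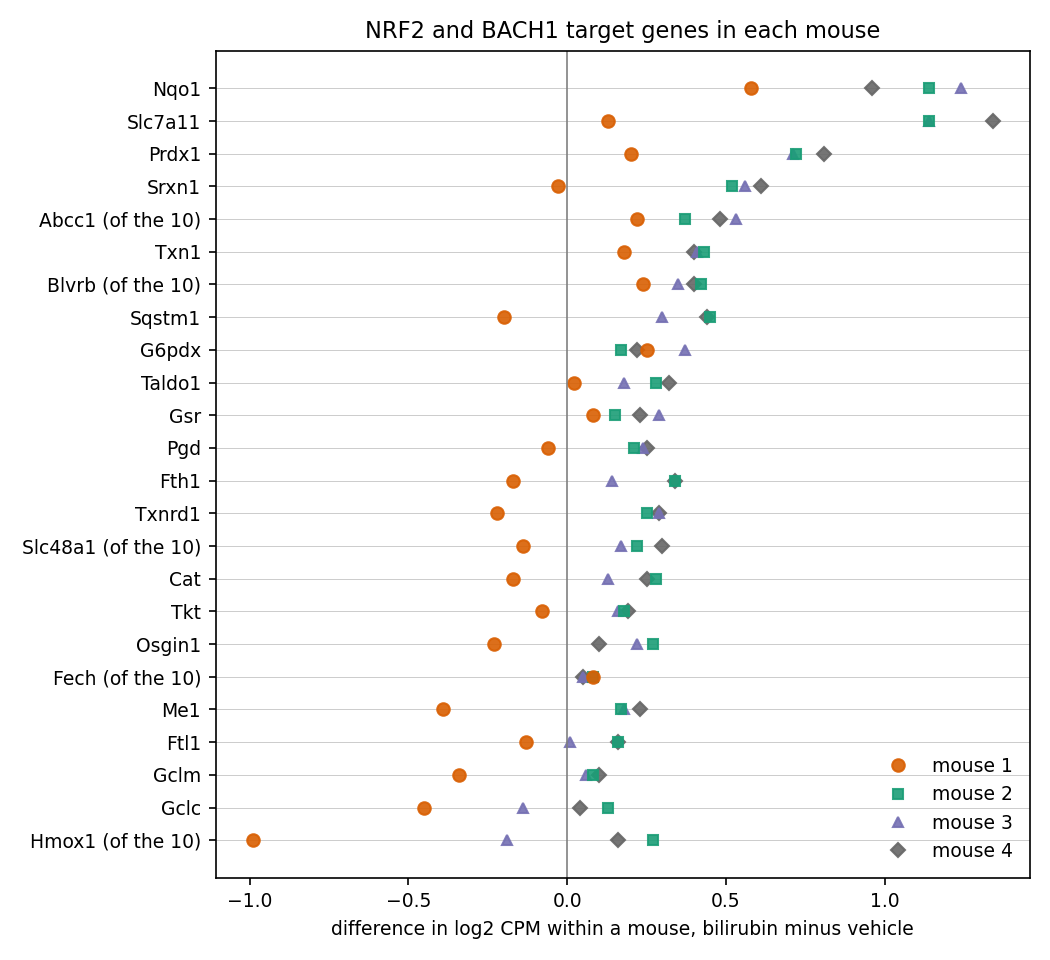
Difference in log2 CPM between the bilirubin and the vehicle culture of each mouse for the 24 NRF2 and BACH1 target genes, ordered by fold change, with a symbol for each mouse. The symbols of mouse 1 lie left of those of mice 2 to 4 for most genes, at -0.99 for *Hmox1*, and 14 of them lie below 0.

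Antioxidant genes made up most of the 10. *Nqo1*, a quinone reductase, was at 23.0, 25.0, 22.5 and 22.0 CPM in vehicle and at 34.5, 55.0, 53.3 and 43.0 CPM in bilirubin cultures. It rose in all 4 mice (log2 fold change 0.98 ± 0.10 SE, edgeR adjusted p = 0.000699), and least in mouse 1. *Slc7a11*, the cystine importer, rose by 0.94 ± 0.17 SE (edgeR adjusted p = 0.0123), with differences of 0.13, 1.14, 1.14 and 1.34 within mice 1 to 4. *Prdx1*, a peroxiredoxin, rose by 0.61 ± 0.09 SE (edgeR adjusted p = 0.00455) and *Txn1*, thioredoxin, by 0.36 ± 0.05 SE (edgeR adjusted p = 0.00251), though both have near-identical copies that can share their reads. *Srxn1*, which restores peroxiredoxins, rose by 0.42 (edgeR adjusted p = 0.0343), *G6pdx* and *Taldo1* of the pentose phosphate pathway by 0.25 and 0.20, and *Gsr*, glutathione reductase, by 0.19 on the log2 scale. *Blvrb* and *Abcc1* were the other 2. *Hmox1*, at -0.18, was the lowest of the 24 by fold change, and its difference from these genes was not tested.

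Transcripts were tested in the same way. The 10 genes had 63 annotated transcripts, of which 42 were tested, and 0 passed the threshold, where 14 of 38206 tested transcripts of all genes (0.0366%) did. At an unadjusted p under 0.05, 6 of the 42 passed, where 7.54% of all tested transcripts (2879 of 38206) did. In a model without the mouse 2 of them passed, both of *Abcc1*. The main *Hmox1* transcript, ENSMUST00000005548, made up 99.3% ± 0.16 of the gene's TPM in vehicle and 99.4% ± 0.0852 in bilirubin cultures (SD, n = 4). The main *Blvrb* transcript, ENSMUST00000037399, made up 79.8% ± 3.52 and 79.1% ± 4.2 and had the lowest adjusted p, 0.0735 by edgeR, at a log2 fold change of 0.34. The main *Abcc1* transcript, ENSMUST00000100167, made up 75.6% ± 4.32 and 76.4% ± 2.49. *Spic* was split between ENSMUST00000004473 at 55.1% ± 8.28 and 55.9% ± 10.2 and ENSMUST00000133724 at 40.5% ± 6.89 and 35.1% ± 15.8.

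Over all tested genes 4.49% were higher and 3.04% lower, and the counts of this list and those below are to be set beside these shares. In heme synthesis 1 of 17 tested genes was higher and 0 lower, near those shares, with a median log2 fold change of 0.02 (1 lower at an unadjusted edgeR p under 0.05, and 0 lower by DESeq2 and limma-voom). The gene was *Alas1*, which encodes the first and rate-limiting enzyme outside the erythroid lineage. It was at 78.1 ± 2.6 CPM in vehicle and at 98.0 ± 5.5 CPM in bilirubin cultures (SD, n = 4). The groups did not overlap, and the log2 fold change was 0.33 ± 0.04 SE (edgeR adjusted p = 0.00134). *Alas2*, its erythroid counterpart, had at most 1 count in any library and was not tested.

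In heme and hemoglobin uptake and transport 2 of 10 tested genes were higher and 2 lower, with a median of -0.03. *Hp*, haptoglobin, which binds free hemoglobin, rose from 0.771 ± 0.0642 to 14.0 ± 2.58 CPM (SD, n = 4; 17.9-fold, edgeR adjusted p = 1.27e-05), and the other was *Blvrb*. *Lrp1*, the receptor for heme bound to hemopexin, was at 4171, 3996, 3906 and 4064 CPM in vehicle and at 3689, 3301, 3219 and 3141 CPM in bilirubin cultures. It fell by 0.28 on the log2 scale (edgeR adjusted p = 0.00305). *Pgrmc2*, a heme chaperone, fell by 0.17 (edgeR adjusted p = 0.0478), passed in 6 of 12 alternatives and lost the call without mouse 2, 3 or 4 (0.198, 0.168 and 0.123). *Cd163*, the receptor for haptoglobin bound to hemoglobin, was near 1 CPM at 1.05 ± 0.394 and 0.799 ± 0.508 CPM (log2 fold change -0.46, 95% confidence interval -1.32 to 0.39, edgeR adjusted p = 0.555). *Hpx*, hemopexin, had between 2 and 15 counts and was not tested.

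Of 14 tested genes that handle the iron released from heme, 3 were higher and 1 lower, with a median of 0.05. *Slc11a2* (DMT1), which moves ferrous iron, rose from 43.4 ± 2.47 to 73.2 ± 6.23 CPM (SD, n = 4; log2 fold change 0.75 ± 0.04 SE, edgeR adjusted p = 4.64e-05). *Slc11a1* (NRAMP1), a phagosomal transporter whose activity was not measured in these Balb/cJ cells, rose by 0.31 ± 0.06 SE (edgeR adjusted p = 0.0142, lost without mouse 2, 3 or 4 at 0.0784, 0.126 and 0.102). *Ncoa4*, the cargo receptor that sends ferritin to the lysosome, rose by 0.33 ± 0.04 SE (edgeR adjusted p = 0.00158). *Slc40a1*, ferroportin, the iron exporter, was at 110, 113, 94.8 and 93.4 CPM in vehicle and at 58.4, 93.1, 52.2 and 53.3 CPM in bilirubin cultures. It fell in all 4 mice, by 0.71 on the log2 scale (edgeR adjusted p = 0.00296), and the culture of mouse 2 stayed just under the lowest vehicle culture. The ferritin chains *Fth1* and *Ftl1*, which have near-identical copies, had log2 fold changes of 0.16 (edgeR adjusted p = 0.299) and 0.05 (edgeR adjusted p = 0.677). *Fth1*, as *Hmox1*, was lower in mouse 1, at -0.17, and without mouse 1 it was past the threshold at 0.27 (edgeR adjusted p = 0.00125). *Hamp*, hepcidin, was at 0 in every library.

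Of 14 tested genes of bilirubin conjugation and export, 3 were higher and 1 lower, with a median of 0.11. Besides *Abcc1*, the pump *Abcc5* (MRP5) rose from 147 ± 4.82 to 188 ± 9.59 CPM (SD, n = 4; log2 fold change 0.36 ± 0.04 SE, edgeR adjusted p = 0.00102). *Ugt1a7c*, a glucuronosyltransferase, rose by 0.25 ± 0.04 SE (edgeR adjusted p = 0.00458, and 0.0537 without mouse 3), though genes of the *Ugt1a* cluster share exons and their reads cannot be fully told apart. *Ugt1a1*, the enzyme that conjugates bilirubin in the liver, was at 1.01 ± 0.663 and 1.18 ± 0.275 CPM (log2 fold change 0.35, 95% confidence interval -0.43 to 1.13, edgeR adjusted p = 0.640). *Abcc3* (MRP3) was at 297, 303, 275 and 270 CPM in vehicle and at 269, 269, 232 and 227 CPM in bilirubin cultures, and fell by 0.20 (edgeR adjusted p = 0.00958, lost without mouse 3 or 4 at 0.0931 and 0.0887). *Abcc2* (MRP2), the exporter of conjugated bilirubin into bile, was at 1.60 ± 0.543 and 1.45 ± 0.914 CPM and its log2 fold change was -0.26, with a 95% confidence interval from -1.17 to 0.66 (edgeR adjusted p = 0.787).

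Of 18 tested regulators of *Hmox1* and heme sensing, 1 was higher and 0 lower, near the shares over all tested genes (4.49% and 3.04%). Their median was -0.01 (1 lower at an unadjusted edgeR p under 0.05, and 0 lower by DESeq2 and limma-voom). *Nfe2l2*, which encodes NRF2, was at 170, 174, 169 and 169 CPM in vehicle and at 208, 187, 185 and 198 CPM in bilirubin cultures. It rose by 0.19 ± 0.04 SE (edgeR adjusted p = 0.0262) in all 4 mice, most in mouse 1, passed in 7 of 12 alternatives and lost the call without mouse 2, 3 or 4 (0.0551, 0.112 and 0.163). *Keap1*, which holds NRF2 for degradation, had a log2 fold change of 0.05 (95% confidence interval -0.07 to 0.17, edgeR adjusted p = 0.673).

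Of 12 tested genes tied to SPI-C and red pulp macrophages, 3 were higher and 1 lower, with a median of -0.20. *Treml4*, a receptor of red pulp macrophages, was at 17.7, 17.2, 19.0 and 17.2 CPM in vehicle and at 24.5, 38.5, 43.0 and 37.0 CPM in bilirubin cultures. Its log2 fold change was 0.98 ± 0.11 SE (edgeR adjusted p = 0.00148), and mouse 1 again had the smallest rise. *Nr1h3*, the oxysterol receptor LXR-alpha, rose by 0.42 ± 0.06 SE (edgeR adjusted p = 0.00314). *Spic* rose while *Slc40a1*, which red pulp macrophages express, fell. Among 10 tested receptors for hemoglobin and for red cells or dying cells, 2 were higher and 1 lower, with a median of -0.16. *Marco*, a scavenger receptor, rose from 7.23 ± 0.837 to 98.9 ± 40.9 CPM (SD, n = 4; log2 fold change 3.70, edgeR adjusted p = 5.51e-05), *Cd47*, the signal that spares cells from being engulfed, rose by 0.32 ± 0.04 SE (edgeR adjusted p = 0.00139), and *Axl*, a receptor for dying cells, fell by 0.54 (edgeR adjusted p = 0.00171).

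The genes most like *Hmox1*, *Spic* and *Blvrb* over the 8 libraries were found among 10945 genes by the root mean square difference of centred log2 CPM. For *Hmox1* they were *Adora3*, *Fgfrl1* and *2210408F21Rik*, at 0.118, 0.140 and 0.145, and none of these passed the threshold. The values of *Adora3*, an adenosine receptor, were 2.33, 3.05, 2.30 and 1.95 CPM in vehicle and 1.21, 3.16, 2.52 and 2.12 CPM in bilirubin cultures. All 3 genes share the low value of mouse 1 with bilirubin, with differences of -0.92, -0.96 and -0.91 in that mouse. For *Spic* they were *Il2rg*, *Ralgds* and *Pde4b*, at 0.130, 0.177 and 0.177. *Il2rg*, the common gamma chain of cytokine receptors, was at 41.0, 40.3, 46.2 and 47.7 CPM in vehicle and at 123, 92.8, 121 and 125 CPM in bilirubin cultures. For *Blvrb* they were *Atox1*, *Pgk1* and *Ugdh*, at 0.0312, 0.0371 and 0.0409, of which *Atox1*, a copper chaperone, was at 48.8, 53.7, 56.4 and 57.1 CPM in vehicle and at 62.4, 71.7, 72.2 and 72.9 CPM in bilirubin cultures.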

How the data were processed

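Expression was measured by poly(A)-selected RNA sequencing in BMDM of 4 mice, each giving a vehicle and a bilirubin library, 8 in all. The submitters' processing notes name bcl2fastq 2.20.0.422, Trim Galore 0.6.7, Cutadapt 3.4, STAR 2.7.9a, Salmon 1.10.1, R 4.2.2 and the genome GRCm39. The authors deposited a gene table of estimated counts from Salmon, not normalized, together with tables per library that hold the TPM, estimated counts and effective lengths of 142434 transcripts. Transcript counts summed per symbol gave the gene table.

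Counts were rounded, scaled by TMM, filtered with filterByExpr (at least 10 counts, 15 in total) and compared by edgeR 4.0.16 (R 4.3.3), fitted on mouse and treatment. The labels give each culture a number and name no mouse. Cultures of the same number were taken as those of the same animal, since the study's methods name the mouse as a covariate. As a check, deviations from the group means correlated within mice 1 to 4 at 0.108, 0.134, 0.108 and -0.0053. The highest correlations with another mouse were 0.0619, 0.0164, 0.0751 and 0.0751. The value within the mouse was the higher in mice 1, 2 and 3 and not in mouse 4. All these correlations were low and were not tested, so the check cannot settle the pairing. Log2 CPM used a prior count of 2, and intervals are at 95%. Ratios of genes were compared by exact sign changes of the 4 paired differences. Alternatives were DESeq2 1.42.0, limma-voom (limma 3.58.1), a model without mouse, other scalings, filters and a length offset, and each mouse left out. The procedure was also run on simulated counts. These were drawn without a mouse effect and with larger changes than those of *Blvrb* and *Abcc1*, so they do not cover paired cultures or changes of that size.

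The members and the 16 gene lists were chosen with earlier results of these data known, and the lists were written by hand. The text names every member, every list gene past the threshold, 12 further genes of heme, iron and bilirubin handling fixed by name, and the 3 genes nearest in pattern to *Hmox1*, *Spic* and *Blvrb* (mean log2 CPM of at least 1). Motifs and windows were chosen after values were seen. Gene positions and sequences are those of GRCm39 with GENCODE M39, the build of the files. Protein sequences and raw reads were not used here, and the results of 2 marker genes are not reported here.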

Additional observations from a re-analysis of the deposited data

Results flagged for a closer look

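In 6 of the 102 groups of 4 cultures examined, 1 culture stood apart from the other 3 by Dixon's test, where chance flags about 1 group in 20. The bilirubin culture of mouse 1 was low for *Blvrb* at 178 CPM (the others 215 to 220), for *Prdx1* at 1549 CPM (2413 to 2565) and for *Srxn1* at 269 CPM (421 to 448). The bilirubin culture of mouse 2 was high for *Slc40a1* at 93.1 CPM (52.2 to 58.4) and for *Flvcr1* at 95.6 CPM (86.3 to 86.8). It was also the only culture with *Alas2*, at 0.0277 CPM, which is 1 count.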

How the results depend on the processing

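The number of genes past the threshold was 1033. It was 686 in a model without the replicate block of mouse, 1692 without a filter on low counts and 579 with an offset for transcript length. Leaving out mice 1, 2, 3 and 4 in turn gave 1910, 634, 377 and 441, so the range was 377 to 1910. Of the calls, 59.6% were higher with TMM scaling, and 48.7% (527 higher and 556 lower) when libraries were scaled by size alone, which moved the median log2 fold change of all genes to -0.0282. Of the 10 members 3 passed, and 5 without a filter, which added *Hmox1* and *Slc48a1*. Of the distinct genes in the lists 34 passed, against 55 without a filter and 21 to 55 with a mouse left out (55 without mouse 1, 21 without mouse 3). Of the members' transcripts 0 passed, against 2 without the replicate block, which changed no call of a member gene. It ended the calls of *Abcc3*, *Gsr*, *Pgrmc2*, *Srxn1* and *Taldo1*. Over 47 named genes, 504 of 563 alternative values kept the direction and the side of the threshold, 51 lost a call, 5 gained one and 3 reversed. The reversals, all of genes that did not pass and all without mouse 1, were those of *Hmox1* to 0.08 (range over mice left out -0.34 to 0.08), *Abcc2* to 0.2 (-0.56 to 0.2) and *Keap1* to -0.01 (-0.01 to 0.1). The log2 TPM ratio of *Hmox1* to *Hmox2*, -0.28 with all mice, also turned, to 0.00085 without mouse 1 (range -0.44 to 0.00085). The causes were not tested. Of the 10 members depth limits *Spic* most, at 44 counts in its lowest library.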
